A study of Mus musculus and Acomys cahirinus with 16 samples.

Results

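Protein kinase C (PKC) is the kinase family through which the tumour promoter TPA acts, and transcripts of 10 of its genes and close relatives were followed in skin. The members were taken by symbol from a list of phorbol ester receptors: the classical isoforms Prkca and Prkcb, the calcium-independent isoforms Prkcd, Prkce, Prkch and Prkcq, the atypical isoforms Prkcz and Prkci, the protein kinase D gene Prkd1 and the Ras activator Rasgrp1. All 10 were found among the 56980 genes of the mouse table and among the 19818 genes of the spiny mouse table, and all 10 passed the filter on low counts in both species. Skin came from Mus musculus, the laboratory mouse, or from Acomys cahirinus, the spiny mouse of Africa, and was untreated or given DMBA/TPA, with 4 samples in each of the 4 groups. DMBA is a carcinogen that forms DNA adducts, and TPA is the phorbol ester applied after it to drive the outgrowth of mutated keratinocytes. The series' title states that spiny mice resist carcinogenesis by this treatment. The labels give no strain, age, sex, dose, duration or time of sampling, and do not say whether the replicates were separate animals, so the p-values measure the spread between these samples. The groups carry no genetic alteration per the labels, and species, housing and sequencing run cannot be told apart in any difference between mouse and spiny mouse.

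Diacylglycerol, made by phospholipase C, normally recruits PKC to membranes, and phorbol esters take its place on the C1 domains of the kinase. Classical isoforms need calcium and diacylglycerol, the calcium-independent group needs diacylglycerol alone, and atypical isoforms respond to neither and are run by polarity proteins, so Prkcz and Prkci are not phorbol ester receptors in the strict sense. In skin, TPA first activates the classical and calcium-independent kinases. With longer exposure it causes the proteins of several of them to be degraded, a step that transcript counts do not show.

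The promoters of members that moved in opposite directions in mouse skin are shown first, since the AP-1 motif was originally described as the response element for TPA. RefSeq windows were available for 8 of the 10 members, 11 windows in all, each covering the 250 bases before an annotated start site on GRCm38.p6. Prkce and Prkch had no window. The 4 windows printed belong to Prkci (chr3:30995521-30995770, plus strand) and Prkca (chr11:108343889-108344138, minus strand), whose transcripts rose in treated mouse skin, and to Prkcb (chr7:122288875-122289124, plus strand) and Rasgrp1 (chr2:117342878-117343127, minus strand), whose transcripts fell. Each is written 5′ to 3′ on the gene's strand, and capitals mark a GC box (GGGCGG on either strand).
Prkci: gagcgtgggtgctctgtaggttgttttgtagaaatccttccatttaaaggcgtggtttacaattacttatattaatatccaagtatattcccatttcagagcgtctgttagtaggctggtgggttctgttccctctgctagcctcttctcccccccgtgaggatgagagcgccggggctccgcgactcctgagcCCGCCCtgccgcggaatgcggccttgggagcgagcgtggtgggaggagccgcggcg
Prkca: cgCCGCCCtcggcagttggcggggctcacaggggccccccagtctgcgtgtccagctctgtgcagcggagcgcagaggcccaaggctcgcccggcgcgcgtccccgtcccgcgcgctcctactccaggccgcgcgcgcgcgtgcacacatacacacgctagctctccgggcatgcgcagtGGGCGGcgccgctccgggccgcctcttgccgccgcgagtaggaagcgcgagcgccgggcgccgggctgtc
Prkcb: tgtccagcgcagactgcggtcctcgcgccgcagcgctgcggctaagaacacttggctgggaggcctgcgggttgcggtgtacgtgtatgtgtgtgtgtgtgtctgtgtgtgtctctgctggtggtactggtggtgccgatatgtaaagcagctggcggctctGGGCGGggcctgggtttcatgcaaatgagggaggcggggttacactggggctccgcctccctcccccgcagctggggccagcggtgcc
Rasgrp1: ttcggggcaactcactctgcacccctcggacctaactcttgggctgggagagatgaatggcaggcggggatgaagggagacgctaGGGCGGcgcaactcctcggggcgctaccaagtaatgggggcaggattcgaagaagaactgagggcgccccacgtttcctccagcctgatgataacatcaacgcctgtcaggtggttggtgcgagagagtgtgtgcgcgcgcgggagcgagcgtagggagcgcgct
The AP-1 motif was searched on both strands as TGANTCA, with any base in the middle. It was in 0 of the 11 member windows, against 6.75% of 32851 RefSeq windows of the same length. The cyclic AMP response element TGACGTCA was likewise in 0 of 11, against 1.55% of all windows. With 11 windows and shares this low, 0 matches do not set the members apart from other genes. A GC box was in 9 of 11, against 32.7% of all windows. In the printed windows it began at base -56 from the start site for Prkci, at -248 and -70 for Prkca, at -88 for Prkcb and at -165 for Rasgrp1, so the genes that rose and those that fell both carried it. The GC content of these windows was 56.4% for Prkci, 76.8% for Prkca, 65.2% for Prkcb and 62.4% for Rasgrp1, where the median of all windows was 52.4%. A match, or its absence, describes the letters of these windows and no binding.

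Libraries held between 19608787 and 30198281 counted read pairs in mouse and between 21143918 and 30561256 in spiny mouse. A level of 3 counts, the smallest taken as detected, corresponds to 0.102 to 0.158 CPM (counts divided by the TMM-scaled size of their library), and the lowest count of any member in any library was 61. Untreated mouse replicate 2 stood apart: markers of the growing hair follicle summed to 1679 CPM there and to between 5.79 and 29.6 CPM in the other untreated mouse samples. Calls that changed without that library are given with their value. The liver transcript Alb was at 396 CPM in untreated mouse replicate 1 and at 0.315 to 3.42 CPM in the other mouse samples. The scaling mattered in mouse: relative to TMM, upper-quartile factors moved the median log2 change of all genes by -0.20 and unscaled library size moved it by -0.24, and the share of higher genes among those called went from 42.4% to 30.5% and 28.6%.

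In mouse skin the isoforms went different ways. With DMBA/TPA, Prkci, Prkch and Prkca rose, Prkcb, Prkd1, Rasgrp1 and Prkcz fell, and Prkcd, Prkce and Prkcq were not called (edgeR quasi-likelihood test, Benjamini-Hochberg adjusted p under 0.05 over 19740 genes). These 7 calls among 10 members stand against 61.2% of all genes tested, 25.9% called higher and 35.3% called lower, so the share was near that of the tissue as a whole. The median log2 change was -0.25 over the members and -0.15 over all genes tested. With upper-quartile factors or unscaled library size the calls were 2 higher and 6 lower, since Prkca was lost and Prkcd and Prkcq were called lower. Without untreated mouse replicate 2 they were 4 higher and 4 lower, with Prkce added. In bulk skin, a change in the number of cells that hold a transcript and a change in its amount per cell cannot be told apart.

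In spiny mouse skin the same treatment went with fewer calls. Rasgrp1, Prkcq and Prkce fell, no member rose, and 7 were not called. These 3 calls of 10 stand against 55.1% of 14833 genes tested, of which 28.2% were called higher and 26.9% lower. The member median was -0.16 against -0.01 for all genes. Treated and untreated samples did not overlap in CPM for 7 members in mouse and 3 in spiny mouse, where 58.6% and 50.9% of all genes did not overlap.

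**Figure D1:**
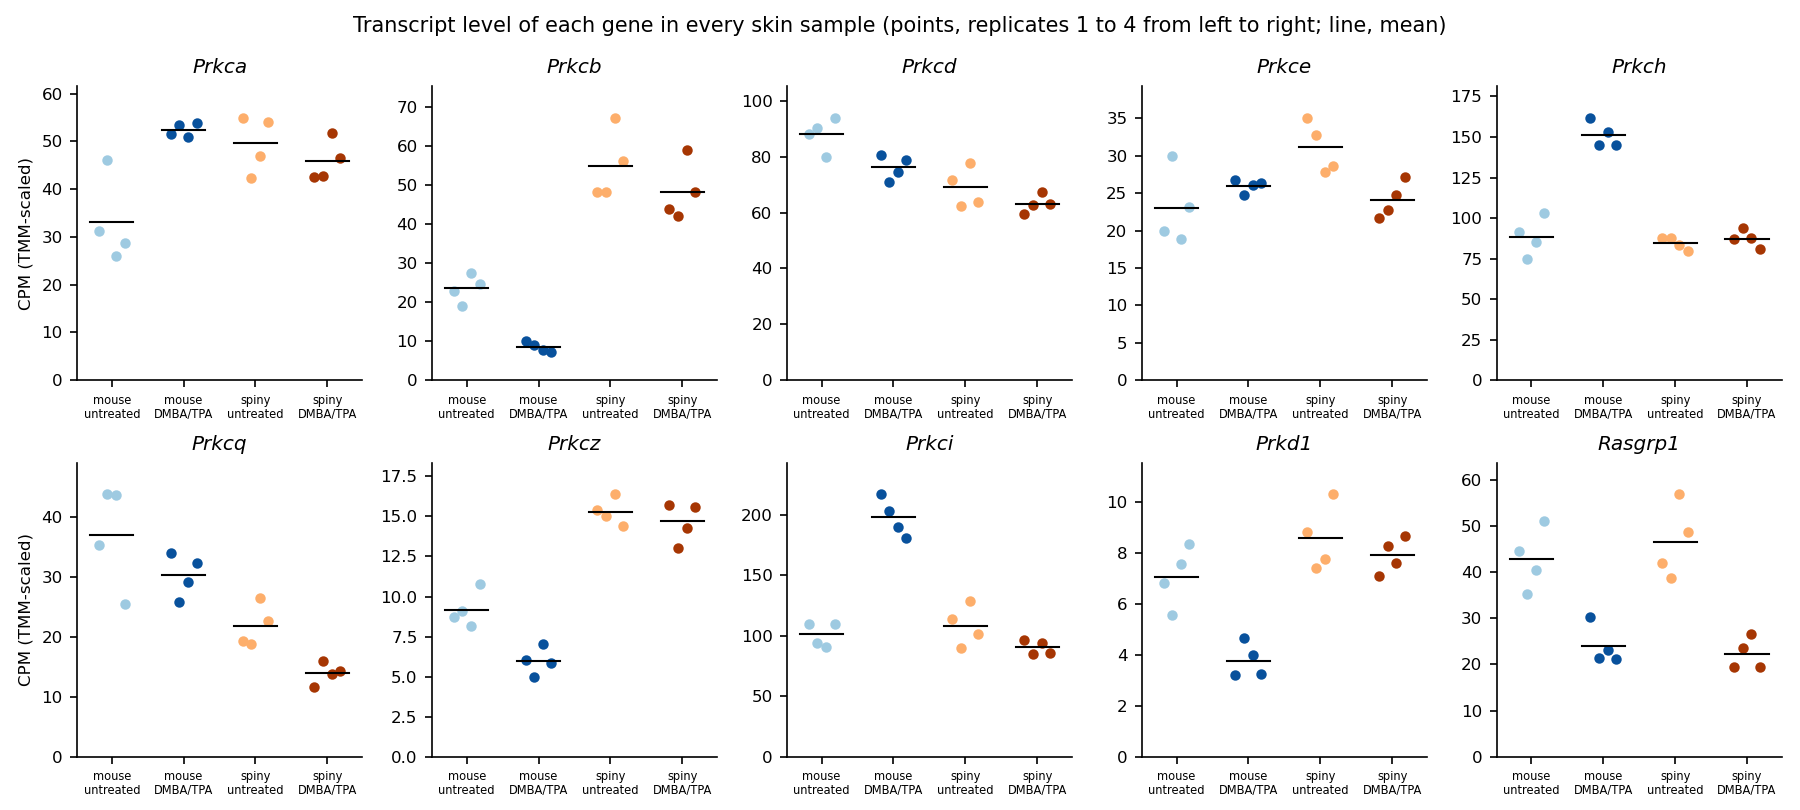
Level of each member in every sample as TMM-scaled CPM (vertical axes, linear, from 0), by group on the horizontal axis, with replicates 1 to 4 from left to right as points and the group mean as a line (n = 4). In mouse, all 4 treated samples lie above the untreated ones for Prkci, Prkch and Prkca and below them for Prkcb, Prkd1, Rasgrp1 and Prkcz; in spiny mouse they separate only for Rasgrp1, Prkcq and Prkce, all downward.

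The classical isoforms moved apart in mouse and stayed within their spread in spiny mouse. Prkca (ENSMUSG00000050965, chr11:107824213-108234754 on GRCm39, minus strand) encodes the calcium-dependent alpha kinase of basal keratinocytes. Its level was 31.3, 46.2, 26.1 and 28.7 CPM in untreated mouse replicates 1 to 4 and 51.5, 53.5, 50.9 and 53.8 CPM in the treated ones. Every treated sample was above every untreated one, and the highest untreated value was that of replicate 2. Prkca rose by a log2 change of 0.67 (SE 0.167, edgeR adjusted p 0.00724), a mean ratio of 1.59, and by 0.96 (SE 0.0864, edgeR adjusted p 2.46e-06) without that replicate. The call was lost with upper-quartile factors (0.44, edgeR adjusted p 0.0754) and with unscaled library size (0.41, edgeR adjusted p 0.0874). Exons of Prkca overlap Apoh on the other strand, and the counting used no strand option. Apoh was at 12.6 CPM in untreated replicate 1 and at 0.105 to 0.273 CPM in the other 7 mouse samples.

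Prkcb (ENSMUSG00000052889, chr7:121887974-122233625, plus strand), the beta kinase best known from B cells and myeloid cells, had the largest change of the members in mouse. Untreated mouse samples had 22.8, 19.1, 27.3 and 24.6 CPM and treated ones 9.98, 9.10, 7.75 and 7.20 CPM. The groups were far apart, with the highest treated value below the lowest untreated one. Prkcb fell by 1.47 on the log2 scale (SE 0.153, edgeR adjusted p 7.02e-05), and its untreated mean was 2.76 times the treated mean. The call held under every alternative run, with log2 changes from -1.70 to -1.32. Myeloid markers, which these cells express, summed to 179 to 410 CPM in untreated and 177 to 237 CPM in treated mouse skin, with all 6 listed genes detected. B cell markers stayed between 0.877 and 2.68 CPM in mouse. T cell markers went from 23.0 to 35.9 CPM down to 11.1 to 14 CPM. Their part in the fall of Prkcb was not tested.

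In spiny mouse Prkcb (scaffold_17, 76832135 to 77179290 on AcoCah2) had 48.2, 48.1, 67.2 and 56.1 CPM untreated and 43.8, 42.1, 59.0 and 48.1 CPM treated. The groups overlapped, and the log2 change of -0.19 was not called (95% interval -0.50 to 0.13, edgeR adjusted p 0.276). Myeloid markers summed to 234 to 267 CPM untreated and 291 to 388 CPM treated in spiny mouse. B cell markers summed to 2.24 to 2.83 and 2.22 to 3.15 CPM, and T cell markers to 39.8 to 66.6 and 61.1 to 118 CPM. Their part in the species difference of Prkcb was not tested. Spiny mouse Prkca had 55.0, 42.4, 46.9 and 54.1 CPM untreated and 42.5, 42.8, 51.7 and 46.6 CPM treated. These values overlapped as well, with a log2 change of -0.11 (95% interval -0.34 to 0.12, edgeR adjusted p 0.384).

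Among the calcium-independent isoforms Prkch stood out in mouse, and Prkcq and Prkce in spiny mouse. Prkch (ENSMUSG00000021108, chr12:73631570-73824959, plus strand) encodes the eta kinase of differentiating epidermis, whose loss makes mice more prone to skin tumours. Its mouse levels were 91.2, 75, 85.3 and 103 CPM untreated and 162, 145, 153 and 145 CPM treated. No treated sample came near the untreated range. Prkch rose by a log2 change of 0.77 (SE 0.116, edgeR adjusted p 0.000497), a mean ratio of 1.71. In spiny mouse (scaffold_1, 169145409 to 169357595) the samples had 87.7, 87.5, 83.4 and 79.4 CPM untreated and 86.9, 94.0, 87.4 and 81.1 CPM treated. That change was 0.05, with the narrowest interval of the members in spiny mouse (95% interval -0.09 to 0.19, edgeR adjusted p 0.54). Suprabasal epidermal markers, the cells where Prkch is known to act, summed to 2762 to 7892 CPM untreated and 8625 to 13378 CPM treated in mouse, and to 7618 to 10703 and 9482 to 15092 CPM in spiny mouse. Their part in the rise was not tested.

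Prkcq (ENSMUSG00000026778, chr2:11176919-11306033, plus strand) encodes the theta kinase of T cells and skeletal muscle. Spiny mouse samples (scaffold_8, 119618272 to 119751191) had 19.3, 18.8, 26.5 and 22.6 CPM untreated and 11.6, 16, 13.9 and 14.3 CPM treated. The groups did not overlap, and Prkcq fell by 0.64 on the log2 scale (SE 0.136, edgeR adjusted p 0.00341), and its untreated mean was 1.56 times the treated mean. Both cell types that express it were measured: skeletal muscle markers summed to 17347 to 21591 CPM untreated and 5774 to 11966 CPM treated, while T cell markers summed to 39.8 to 66.6 and 61.1 to 118 CPM. All 7 listed genes of either type had counts in both groups, and their part in the fall was not tested. In mouse, Prkcq had 35.3, 43.9, 43.7 and 25.6 CPM untreated and 34.0, 25.9, 29.2 and 32.4 CPM treated. Untreated replicate 4 lay below the whole treated group, so the ranges overlapped. The mouse change of -0.29 was not called (95% interval -0.68 to 0.10, edgeR adjusted p 0.176). Without untreated replicate 2 it was -0.11 and not called. It was called without replicate 4 (-0.42, edgeR adjusted p 0.0254), with upper-quartile factors (-0.50, edgeR adjusted p 0.0455) and with unscaled library size (-0.54, edgeR adjusted p 0.0342). Muscle markers were lower in treated mouse skin too, at 2866 to 3840 CPM against 11708 to 18050 CPM.

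Prkce (ENSMUSG00000045038, chr17:86475213-86965347, plus strand, overlapping Gm54542 on the same strand), the epsilon kinase whose overexpression in mouse epidermis promotes carcinoma, took opposite signs in the species. In spiny mouse (scaffold_1, 93789313 to 94285485) it had 35.1, 32.8, 27.8 and 28.6 CPM untreated and 21.7, 22.8, 24.8 and 27.1 CPM treated. The ranges did not overlap, though the highest treated and lowest untreated samples were close. Prkce fell by 0.37 (SE 0.102, edgeR adjusted p 0.0132). Mouse levels were 20.0, 29.9, 18.9 and 23.1 CPM untreated and 26.8, 24.8, 26.1 and 26.4 CPM treated. Only untreated replicate 2 was above the treated samples. The mouse change of 0.18 was not called (95% interval -0.15 to 0.51, edgeR adjusted p 0.303). It became 0.42 and was called without that replicate (edgeR adjusted p 0.00196), as it was with limma-voom (0.32, limma adjusted p 0.00582), while upper-quartile factors and unscaled library size turned its sign (-0.04 and -0.07).

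Prkcd (ENSMUSG00000021948, chr14:30317311-30348167, minus strand), the delta kinase tied to keratinocyte differentiation and cell death, was called in neither species. It ranged from 80 to 94.0 CPM in untreated and from 70.9 to 80.6 CPM in treated mouse skin, and from 62.3 to 77.9 and 59.5 to 67.3 CPM in spiny mouse. The ranges overlapped in both species. The mouse change of -0.21 (95% interval -0.41 to -0.00364, edgeR adjusted p 0.0721) missed the threshold after adjustment, and it was -0.11 without untreated replicate 2. It was called with upper-quartile factors (-0.41, edgeR adjusted p 0.00498), unscaled library size (-0.45, edgeR adjusted p 0.00305) and limma-voom (-0.22, limma adjusted p 0.0186). The spiny mouse change was -0.13 (95% interval -0.31 to 0.06, edgeR adjusted p 0.211).

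The atypical isoforms parted in mouse. Prkci (ENSMUSG00000037643, chr3:31049896-31107108, plus strand) encodes the iota kinase that works with the PAR polarity proteins. Mouse levels were 110, 94.3, 91.0 and 110 CPM untreated and 217, 203, 190 and 181 CPM treated. All treated samples were well above all untreated ones. Prkci rose by a log2 change of 0.96 (SE 0.113, edgeR adjusted p 0.000131), a mean ratio of 1.95, and by 0.73 to 1.11 over the alternatives run, all of them called. In spiny mouse (scaffold_7, 72925367 to 72983823) it had 114, 90.0, 129 and 101 CPM untreated and 96.6, 85.1, 94.3 and 85.5 CPM treated. The sign was the opposite one and the ranges overlapped. The spiny mouse change of -0.26 was not called (95% interval -0.50 to -0.02, edgeR adjusted p 0.0625). It was called without untreated replicate 2 (-0.34, edgeR adjusted p 0.0139), with upper-quartile factors (-0.30, edgeR adjusted p 0.0416), with DESeq2 (-0.27, DESeq2 adjusted p 0.0464) and with limma-voom (-0.26, limma adjusted p 0.0377).

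Prkcz (ENSMUSG00000029053, chr4:155344586-155445818, minus strand) encodes the zeta kinase, the other partner of the polarity complex. Its mouse levels were 8.75, 9.12, 8.13 and 10.8 CPM untreated and 6.04, 4.97, 7.02 and 5.87 CPM treated, with no overlap. Prkcz fell by 0.62 (SE 0.155, edgeR adjusted p 0.00722), and the call was lost by a small margin without treated replicate 2 (-0.45, edgeR adjusted p 0.0506). Spiny mouse samples (scaffold_15, 50464655 to 50573775) had 15.4, 15, 16.4 and 14.4 CPM untreated and 15.7, 13, 14.3 and 15.6 CPM treated. They overlapped, with a change of -0.06 (95% interval -0.26 to 0.13, edgeR adjusted p 0.571). In each mouse sample the length-scaled level (FPKM, fragments scaled by gene length and library total) of Prkci was divided by that of Prkcz, a ratio chosen after the values were seen. It was 14.3, 11.8, 12.7 and 11.7 untreated and 40.9, 46.4, 30.8 and 35.2 treated. The treated ratios had to lie apart, since Prkci rose and Prkcz fell, each without overlap, so this adds no separate finding. In spiny mouse the same ratio was 9.17 ± 1.02 untreated and 8.03 ± 0.661 treated (SD, n = 4 each). Basal epidermal markers summed to 6938 to 10038 CPM untreated and 14078 to 18834 CPM treated in mouse, and to 8295 to 10020 and 16661 to 20885 CPM in spiny mouse. Growing hair follicle markers were at 17452 to 18625 CPM in treated mouse skin against 5.79 to 1679 CPM untreated, and at 152 to 2301 CPM in treated spiny mouse skin against 792 to 8105 CPM untreated, with Krt85 not among the spiny mouse genes. The part of either marker list in the rise of Prkci, in the changes of the other members or in their species differences was not tested.

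**Figure D2:**
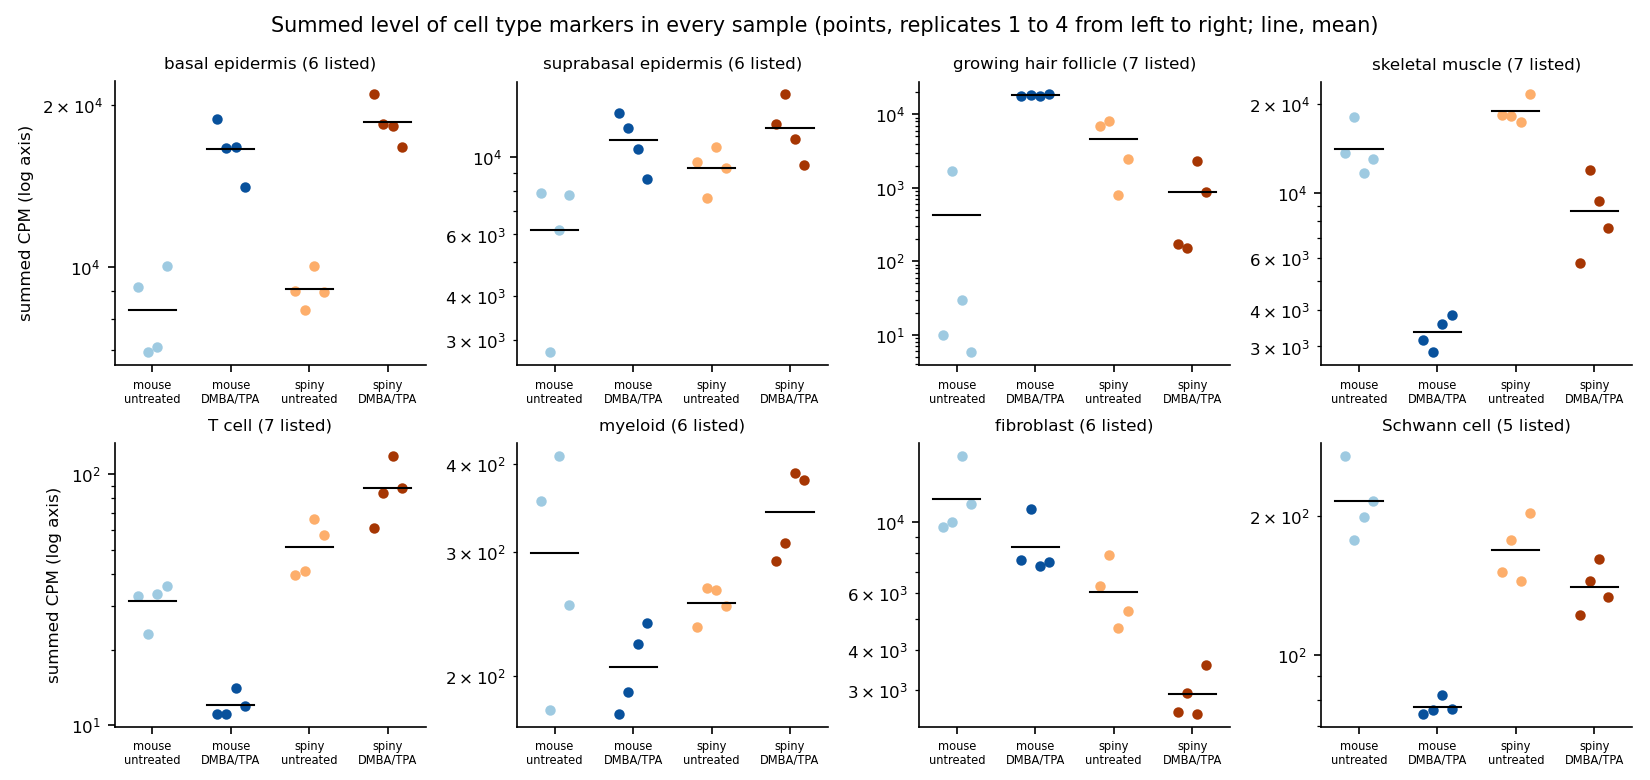
Summed TMM-scaled CPM of the listed markers of 8 cell types (vertical axes, logarithmic) in every sample by group, replicates 1 to 4 from left to right as points and the group mean as a line (n = 4). Basal epidermal markers are higher and skeletal muscle markers lower with treatment in both species, hair follicle markers reach 17452 to 18625 CPM in treated mouse skin, and T cell markers are lower in treated mouse and reach 118 CPM in treated spiny mouse.

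Rasgrp1 (ENSMUSG00000027347, chr2:117110474-117173482, minus strand) was called lower in both species. It encodes an exchange factor that links diacylglycerol and phorbol esters directly to Ras in T cells and keratinocytes. Mouse samples had 44.6, 35.2, 40.4 and 51.1 CPM untreated and 30.3, 21.4, 23.1 and 21.2 CPM treated. Spiny mouse samples (scaffold_1, 31560075 to 31620720) had 42.0, 38.7, 56.9 and 48.6 CPM untreated and 19.4, 23.6, 26.5 and 19.5 CPM treated. Neither species showed any overlap between its groups. Rasgrp1 fell by 0.84 in mouse (SE 0.154, edgeR adjusted p 0.00152) and by 1.07 in spiny mouse (SE 0.146, edgeR adjusted p 0.000326). Untreated means were 1.78 and 2.09 times the treated ones. Both calls held under every alternative run. T cell markers summed to 23 to 35.9 and 11.1 to 14 CPM in mouse and to 39.8 to 66.6 and 61.1 to 118 CPM in spiny mouse, untreated and treated, and their part in the fall of Rasgrp1 was not tested.

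Prkd1 (ENSMUSG00000002688, chr12:50388014-50695881, minus strand) encodes a kinase that carries its own C1 domains and is switched on by PKC. It was among the least abundant members, with 6.80, 5.57, 7.55 and 8.34 CPM in untreated and 3.20, 4.66, 4 and 3.23 CPM in treated mouse skin. The groups did not overlap, and Prkd1 fell by 0.90 (SE 0.192, edgeR adjusted p 0.00322), with untreated means 1.87 times the treated. In spiny mouse (scaffold_1, 148118681 to 148421762) it had 8.81, 7.38, 7.76 and 10.3 CPM untreated and 7.10, 8.25, 7.61 and 8.64 CPM treated. These overlapped, with a change of -0.11 (95% interval -0.40 to 0.17, edgeR adjusted p 0.472). Schwann cell markers summed to 177 to 270 CPM untreated and 74.5 to 81.8 CPM treated in mouse, and to 145 to 203 and 122 to 161 CPM in spiny mouse. Fibroblast markers summed to 9662 to 16002 and 7302 to 10986 CPM in mouse, and to 4687 to 7894 and 2538 to 3603 CPM in spiny mouse. Blood endothelium markers summed to 194 to 219 and 135 to 166 CPM in mouse, and to 251 to 316 and 272 to 329 CPM in spiny mouse. The part of these marker lists in the fall of Prkd1 was not tested.

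**Figure D3:**
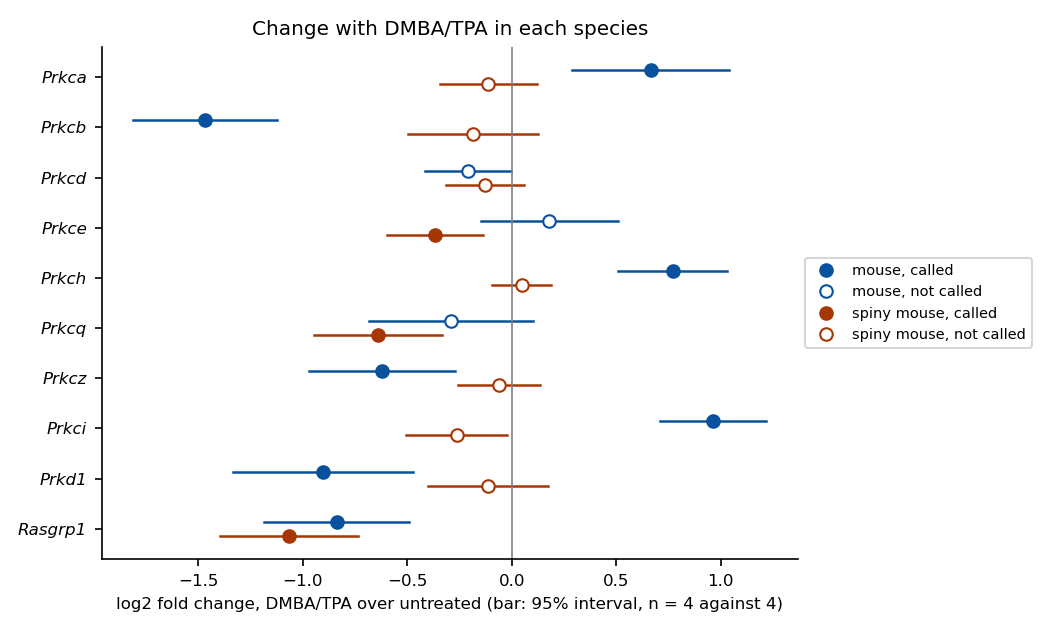
Log2 fold change with DMBA/TPA of each member in mouse and spiny mouse (horizontal axis, points), with the 95% interval of the edgeR fit as a bar (n = 4 against 4 in each species); filled points were called. Prkci, Prkch and Prkca (the last not with upper-quartile factors or unscaled library size) are called to the right in mouse, Prkcb, Prkd1 and Prkcz are called to the left in mouse, and Rasgrp1 is called to the left in both species.

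Whether the change differed between the species was tested as the interaction of species and treatment over 13656 shared genes. Of the 10 members, 7 were called, against 46.1% of all genes tested. The change was larger (more positive) in spiny mouse for 3 of them, against 21.4% of all genes, and smaller for 4, against 24.7%. The member median was -0.29 against -0.03 for all genes. The calls were Prkci (spiny mouse minus mouse, -1.23, SE 0.154, edgeR adjusted p 1.84e-05), Prkca (-0.78, SE 0.205, edgeR adjusted p 0.00601), Prkch (-0.72, SE 0.126, edgeR adjusted p 0.000287) and Prkce (-0.55, SE 0.18, edgeR adjusted p 0.0211). In the other direction they were Prkcb (1.28, SE 0.209, edgeR adjusted p 0.00017), Prkd1 (0.79, SE 0.223, edgeR adjusted p 0.00933) and Prkcz (0.56, SE 0.166, edgeR adjusted p 0.0124). Each of these genes but Prkce had been called in mouse and not in spiny mouse. The difference was not called for Rasgrp1 (-0.23, 95% interval -0.70 to 0.24), Prkcq (-0.35, 95% interval -0.84 to 0.14) or Prkcd (0.08, 95% interval -0.17 to 0.33), whose edgeR adjusted p-values were 0.416, 0.229 and 0.6. So the fall of Prkcq in spiny mouse was not shown to differ from mouse. Scaling changed some of these calls: Prkce was lost with upper-quartile factors (-0.37, edgeR adjusted p 0.148) and with unscaled library size (-0.31, edgeR adjusted p 0.211), and Prkca with unscaled library size (-0.54, edgeR adjusted p 0.0667). Prkcz was lost without the low-count filter (0.43, edgeR adjusted p 0.0529) and without treated mouse replicate 2 (0.39, edgeR adjusted p 0.0682). Over all genes, relative to TMM, the median of this difference moved by -0.10 (DESeq2 size factors), 0.16 (upper quartile), 0.22 (unscaled library size) and -0.13 (no filter), and positive values made up 36.9%, 61.2%, 66.2% and 36.3% of the calls in place of 46.4%.

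Levels of different genes were compared per length, as FPKM, within each species. The tables of the species were normalised separately and have gene models of their own, so no level was tested across them. In untreated mouse skin Prkci (18.3 ± 1.84 FPKM, SD, n = 4) and Prkcd (15.9 ± 1.07) led with overlapping ranges. Prkch (11.8 ± 1.56) and Rasgrp1 (7.65 ± 1.2) followed, each apart from its neighbours. Prkcq (5.24), Prkca (3.68), Prkce (3.16) and Prkcb (3.07) formed a run in which each gene overlapped the next, and Prkd1 (1.93) and Prkcz (1.45) came last, also overlapping. With treatment the mouse order became Prkci (35.6 ± 2.81), Prkch (20.1 ± 1.05), Prkcd (13.8 ± 0.792) and Prkca (5.83 ± 0.16), each apart from the next. Prkcq and Rasgrp1 (both 4.29) overlapped, Prkce (3.58) overlapped Prkcq but not Rasgrp1, and Prkcb (1.11), Prkd1 (1.03) and Prkcz (0.945) overlapped at the bottom.

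Spiny mouse skin without treatment was led by Prkci (23.9 ± 3.69 FPKM) and Prkch (23.1 ± 1.07), which overlapped, then Prkcd (15.4 ± 1.62) and Rasgrp1 (9.07 ± 1.57), each apart. Prkcb (5.41), Prkcq (5.25), Prkca (4.4) and Prkce (3.51) overlapped in turn, and Prkcz (2.6) and Prkd1 (1.97) were apart from their neighbours. With treatment Prkch (23.9 ± 1.44), Prkci (19.9 ± 1.31) and Prkcd (14.1 ± 0.71) were each apart from the next. The place of Prkch above Prkci rests on the deposited gene lengths, 3658 and 4534 bases in spiny mouse. In CPM, not divided by length, these treated ranges overlapped (Prkch 81.1 to 94, Prkci 85.1 to 96.6). Prkcb (4.75), Rasgrp1 (4.33), Prkca (4.08), Prkcq (3.37), Prkce (2.72) and Prkcz (2.49) overlapped in turn, and Prkd1 (1.82) was lowest and apart. Rasgrp1 thus left the place that it held alone, per length, in untreated skin of either species. That place also rests on the deposited lengths. In CPM, untreated Rasgrp1 overlapped Prkca in mouse (35.2 to 51.1 against 26.1 to 46.2) and in spiny mouse (38.7 to 56.9 against 42.4 to 55).

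Shares within the 8 PKC isoforms do not depend on library scaling, while their summed FPKM does. The summed FPKM of the isoforms was 62.5 ± 2.83 in untreated and 85.2 ± 4.29 in treated mouse skin, and 83.6 ± 6.61 and 75.3 ± 2.38 in spiny mouse (SD, n = 4 each). In mouse the share of Prkci went from 29.2% ± 1.96 to 41.8% ± 1.79, that is by 12.6 percentage points. Prkch went from 18.8% to 23.6%. Prkcd, whose own level was not called, went from 25.4% ± 0.686 to 16.2% ± 0.837. Prkcb went from 4.92% to 1.3% and Prkcz from 2.32% to 1.11%. For these 5 isoforms the 4 treated and 4 untreated shares did not overlap, while those of Prkca, Prkce and Prkcq did. By class, the atypical share went from 31.5% to 42.9% and the classical share from 10.8% to 8.16%. The calcium-independent share, here Prkcd, Prkce, Prkch and Prkcq without the atypical isoforms, went from 57.7% to 49%. In spiny mouse the atypical share was 31.6% untreated and 29.8% treated, the calcium-independent share 56.7% and 58.5%, and the classical share 11.7% in both. Only Prkcq, from 6.27% to 4.48%, had shares that did not overlap there. These shares were compared by their ranges, with no test.

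**Figure D4:**
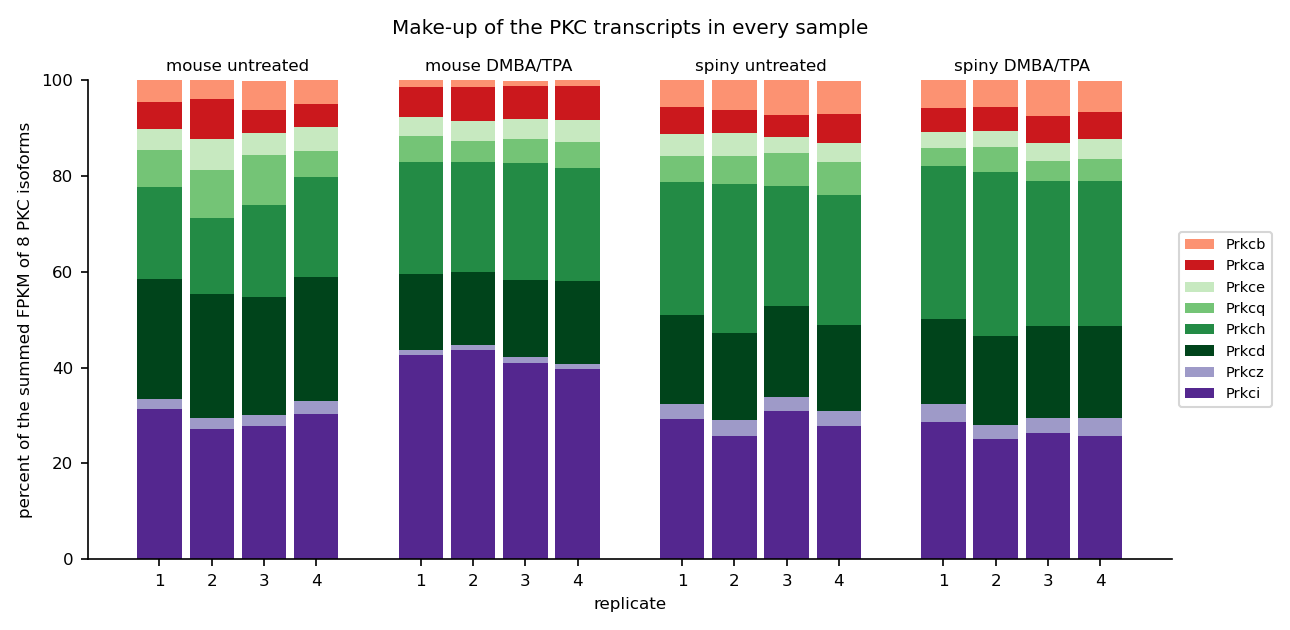
Share of each of the 8 PKC isoforms in their summed FPKM (vertical axis, percent) in every sample, by group and replicate on the horizontal axis; purple tones are atypical, green tones calcium-independent and red tones classical isoforms. The Prkci segment grows from a mean of 29.2% to 41.8% in mouse and is 28.5% and 26.5% in spiny mouse.

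The genes around PKC were taken from 6 lists of 63 genes, of which 61 were tested in mouse, 59 in spiny mouse and 59 for the species difference. In mouse 15 were called higher and 26 lower (all genes, 25.9% and 35.3%), with a median log2 change of -0.33 (all genes, -0.15). Upper-quartile factors gave 11 higher and 32 lower, and unscaled library size 11 and 35; without untreated mouse replicate 2 the counts were 19 and 27. In spiny mouse 10 were higher and 20 lower (all genes, 28.2% and 26.9%), with a median of -0.12 (all genes, -0.01). The difference between the species was positive for 18 and negative for 12 (all genes, 21.4% and 24.7%), with a median of 0.17 (all genes, -0.03). This split moved to 16 and 14 without untreated mouse replicate 2. It was 17 and 13 with DESeq2 size factors, 20 and 9 with upper-quartile factors and 22 and 9 with unscaled library size. The medians under these scalings were 0.07, 0.33 and 0.39.

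Of the other receptors with a C1 domain, 9 of 13 tested fell in mouse and 1 rose (all genes, 35.3% and 25.9%), with a median of -0.99. Without untreated mouse replicate 2, 8 fell, and with upper-quartile factors or unscaled library size 12 fell. Rasgrp2 (-1.24) and Rasgrp3 (-1.43), relatives of Rasgrp1, both fell, and so did Dgkb (-2.30, SE 0.295, edgeR adjusted p 0.00021), a diacylglycerol kinase. The gene that rose was Chn2 (1.87, SE 0.345, edgeR adjusted p 0.00153), a Rac inhibitor. In spiny mouse 5 of 12 fell and 1 rose (all genes, 26.9% and 28.2%), with a median of -0.21. Dgkg had the largest fall there (-1.38), and the gene that rose was Rasgrp4 (1.19, SE 0.194, edgeR adjusted p 0.00084), known from mast cells, which fell in mouse (-0.99). The species difference was positive for 5 of 12 and negative for 1 (all genes, 21.4% and 24.7%). Without untreated mouse replicate 2 it was positive for 4, and with upper-quartile factors and unscaled library size for 6 and 7. Rasgrp4 (2.18, SE 0.269, edgeR adjusted p 1.53e-05) led the positive ones, and the negative one was Chn2 (-2.06). Mast cell markers summed to 80.9 to 146 and 94.7 to 110 CPM in mouse and to 112 to 139 and 95.3 to 145 CPM in spiny mouse, untreated and treated, with Tpsb2 not among the spiny mouse genes and Mcpt4 at 0 in every spiny mouse sample.

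Phospholipase C genes, the source of diacylglycerol, were 5 higher and 5 lower of 12 in mouse (all genes, 25.9% and 35.3%). The counts were 7 and 5 without untreated mouse replicate 2, and 3 and 5 with upper-quartile factors or unscaled library size. Their median was 0.15 and turned to -0.06 with upper-quartile factors and to -0.10 with unscaled library size. Plch1 (3) had the largest rise, at a low level, and Plcd4 (-1.85) the largest fall. In spiny mouse 3 rose and 2 fell of 11 (all genes, 28.2% and 26.9%), among them Plcb3 (0.67) and Plcd4 (-0.83). The difference was positive for 5 and negative for 1 of 11 (all genes, 21.4% and 24.7%), and for 4 and 2 without untreated mouse replicate 2. Plcb4 (1.90, SE 0.216, edgeR adjusted p 7.34e-06) and Plcb2 (1.41) were the largest. Of the other diacylglycerol kinases, which remove the ligand, 3 of 7 fell and 1 rose in mouse (all genes, 35.3% and 25.9%). Dgkh (-1.85) and Dgki (-1.65) had the largest falls. In spiny mouse 2 of 7 fell (all genes, 26.9%), Dgki (-1.46) and Dgkq (-0.29). The difference was positive for Dgkh (1.75) and Dgkd (0.88) and negative for 1 more of the 7 (all genes, 21.4% and 24.7%).

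Partners of PKC included several that bind the atypical kinases. In mouse 5 of 15 rose and 2 fell (all genes, 25.9% and 35.3%). Their median of 0.08 turned to -0.13 with upper-quartile factors and -0.16 with unscaled library size. Without untreated mouse replicate 2 the counts were 7 and 4. The 5 that rose were the adaptors Pard6b (1.55, SE 0.122, edgeR adjusted p 1.8e-05) and Pard6g (1.05), the polarity proteins Llgl1 (0.67) and Llgl2 (0.71), and Pawr (1.35), an inhibitor of atypical PKC. Pard3 (0.08), Pard6a (-0.04) and Sqstm1 (-0.33), on the same list, were not called in mouse. The scaffold gene Akap12 fell (-1.49). In spiny mouse 2 rose and 6 fell of 15 (all genes, 28.2% and 26.9%). Pard6b was again higher (0.66), and Akap5 (-1.67), Akap12 (-0.85) and Pard3 (-0.40, edgeR adjusted p 0.00541) were among the lower ones. The difference was negative for 7 and positive for 1 of 15 (all genes, 24.7% and 21.4%). It was negative for 8 without untreated mouse replicate 2, and for 5 with upper-quartile factors or unscaled library size. Pawr (-1.71, SE 0.161, edgeR adjusted p 1.4e-06), Llgl2 (-0.89), Pard6b (-0.88), Pard6g (-0.82) and Llgl1 (-0.65) had the sign of Prkci. So did Phlpp2 (-0.53, edgeR adjusted p 0.0083) and Pard3 (-0.48, edgeR adjusted p 0.017), and Akap12 was the positive one (0.64). The differences of Pard6a and Sqstm1 (both 0.17) were not called.

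PKC substrates were mixed, with 3 of 8 higher and 2 lower in mouse (all genes, 25.9% and 35.3%). In spiny mouse 2 were higher and 3 lower (all genes, 28.2% and 26.9%). Marcksl1, an actin-binding substrate, rose in mouse (2.38, SE 0.108, edgeR adjusted p 2.17e-06), and Gap43, a neuronal one, fell (-1.52, edgeR adjusted p 0.0205), a call lost without any of 5 single libraries, at edgeR adjusted p-values of 0.055 to 0.0705. In spiny mouse Plek, a substrate of blood cells, rose (1.88) and Add2, an adducin, fell (-3.13). The species difference was negative for Add2 (-4.17) and Marcksl1 (-2.75) and positive for Plek (2.34) and Add3 (0.62). On the route from PKC to NF-kB, 5 of 6 genes fell in mouse (all genes, 35.3%), among them Card9 (-0.89) and Card10 (-0.67). With DESeq2 size factors, or without untreated mouse replicate 2, 4 fell. In spiny mouse 2 rose and 2 fell of 6 (all genes, 28.2% and 26.9%). Card9 (-0.90) and the keratinocyte gene Card14 (-0.80) were lower, and Malt1 (0.54) and Card10 (0.49) higher. The difference was positive for 3 of the 6 (all genes, 21.4%), among them Card10 (1.16) and Malt1 (0.85).

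**Figure D5:**
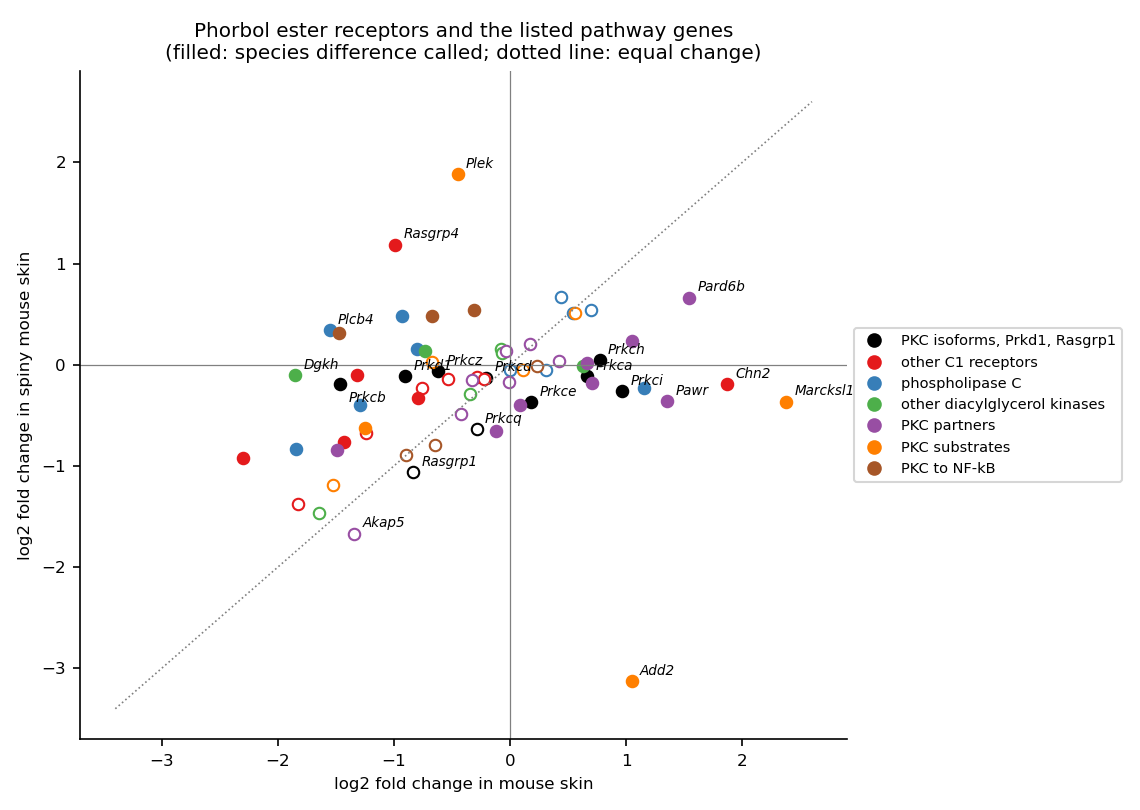
Log2 change with DMBA/TPA in mouse (horizontal axis) against that in spiny mouse (vertical axis) for the 10 members (black) and the pathway genes tested in both species (coloured by list); filled points differ between the species by the interaction test and the dotted line marks equal change. Most members lie near 0 on the vertical axis and spread from -1.47 for Prkcb to 0.96 for Prkci on the horizontal one, with Rasgrp1 close to the dotted line.

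Genes whose profile over the 16 samples came closest to that of a member were found for the 3 members with the largest species difference. Likeness was the root mean square distance between log2 CPM profiles, each centred within its species, among 13656 genes. Closest to Prkci were Fzd6 (0.11), Cast (0.116) and Nipal3 (0.119), where the median gene was at 0.47. Closest to Prkcb were Akap7 (0.167), Pcgf5 (0.174) and Crebrf (0.176), with a median of 0.646. Among the closest to Prkd1 were Plcb1 (0.154) and Adgrl4 (0.159), with a median of 0.506. Plcb1 is also on the list of phospholipase C genes, and fell in mouse (-0.80, SE 0.162, edgeR adjusted p 0.00256) but was not called in spiny mouse (0.16, edgeR adjusted p 0.223). These are descriptions of samples that share treatment groups.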

How the data were processed

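Transcripts were measured by sequencing of polyadenylated RNA from skin, in 16 libraries made with a stranded kit per the labels. The authors deposited raw fragment counts per gene in 1 table for each species. Per the file headers, read pairs with both ends mapped were counted with featureCounts 2.0.3 and no strand option, on GRCm39 with Ensembl 108 for mouse and on AcoCah2 for spiny mouse. Trim Galore and HISAT2 are named, without a version, in the submitters' processing notes. The series' design text describes irradiated fibroblasts, and the sample labels were followed instead. Mouse symbols came from GENCODE M39 by identifier (56236 matched, 744 did not). Untreated columns carry another code than the labels and were matched to labels through the species letter and the number, and that of untreated mouse replicate 2 has a further suffix of unstated meaning.

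Counts passed filterByExpr and TMM scaling before edgeR 4.0.16 (R 4.3.3) quasi-likelihood F tests, within each species (8 samples each) and, for symbols present once per table, of the interaction of species and treatment (16 samples). Benjamini-Hochberg adjustment ran over all genes tested, and a gene was called under 0.05. SE is the log2 change over the square root of F, and 95% intervals use the degrees of freedom of the fit. The script was tested on simulated data. FPKM used the deposited gene length. Likeness used log2 CPM with a prior count of 2. Replicates differed beyond sampling noise, with a chi-square per degree of freedom of at least 11.35 in mouse and 22.59 in spiny mouse over 12 pairs each. Detection limits cover counting error only. Alternatives were DESeq2 1.42.0, limma 3.58.1 (voom with sample weights), other scalings, no filter, a replicate block and leaving out each library. List counts without untreated mouse replicate 2 were added after the data were seen.

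All 10 members were named, with any gene of the 6 pathway lists, first the called genes with the largest absolute change, and a few genes that this rule or the likeness rule selects are not reported here. The members and lists were chosen with earlier results of these data known.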

Additional observations from a re-analysis of the deposited data

Results flagged for a closer look

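Single libraries stood far from their group by Dixon's test at its 95% critical value in 6 of 128 groups of values, and chance marks about 1 in 20. The lone member value was the share of Prkcz among the 8 isoforms in untreated spiny mouse replicate 2, at 3.31%. The others were marker sums. Untreated mouse replicate 2 was high for growing hair follicle (1679 CPM), melanocyte (105 CPM) and blood endothelium (219 CPM) markers. Treated mouse replicate 2 was high for fibroblast markers (10986 CPM), and treated spiny mouse replicate 4 for blood endothelium markers (329 CPM). Without untreated mouse replicate 2, the mouse log2 change of Prkca went from 0.67 to 0.96 and that of Prkce from 0.18 to 0.42.

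The change with DMBA/TPA differed between the species, by the edgeR interaction test, for 7 members. The differences (spiny mouse minus mouse, log2) were -1.23 for Prkci, -0.78 for Prkca, -0.72 for Prkch, -0.55 for Prkce, 1.28 for Prkcb, 0.79 for Prkd1 and 0.56 for Prkcz. Among the largest called differences of the pathway genes were Rasgrp4 (2.18), Chn2 (-2.06), Plcb4 (1.90), Plcb2 (1.41), Dgkh (1.75), Dgkd (0.88), Pawr (-1.71), Llgl2 (-0.89), Add2 (-4.17), Marcksl1 (-2.75) and Card10 (1.16).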

How the results depend on the processing

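No called member changed sign under any alternative run. Of the member values under the alternatives, 139 of 150 kept their side of the threshold in mouse, 143 of 150 in spiny mouse and 225 of 230 for the species difference, and the others are given beside the genes in the report or here. Uncalled values that changed sign were mouse Prkce (down to -0.07 with unscaled library size) and the species difference of Prkcd (down to -0.05 with no filter). The changes of 2 isoform shares moved by more than the SD pooled over both groups when computed from CPM not divided by length, in mouse to -4.28 points in place of -3.62 for Prkcb and -7.88 in place of -9.24 for Prkcd. Division by gene length was the only step that differed.

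The labels do not say that replicate numbers pair samples, and the deviations of same-numbered samples correlated by 0.00943 on average in mouse and by -0.3554 in spiny mouse. With a replicate block, 11246 genes were called in mouse in place of 12085, 7418 in spiny mouse in place of 8180, and 5723 for the species difference in place of 6290. Members called with the block were 7, 4 and 7: spiny mouse Prkcb (-0.19, edgeR adjusted p 0.0474) and Prkci (-0.25, edgeR adjusted p 0.0338) were gained and Prkce was lost (-0.37, edgeR adjusted p 0.0501). Depth did not limit the members, whose lowest count was 61.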
